A study of Homo sapiens with 32 samples.

Results

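The genes described here make up the machinery that copies DNA, namely the origin licensing and firing factors, the replicative helicase, the replicative polymerases and the fork proteins that serve them. They were chosen by name for their role in replication, and all 44 were found among the 18638 genes of a pooled CRISPR-knockout library. Each had 4 sgRNAs, so that 176 of the 74987 sgRNAs of the library belonged to them. The cells were RKO, an established human colon carcinoma line, with stable transgenes for Cas9 and for KinprolaPKA. KinprolaPKA is a split-HaloTag recorder that takes up the fluorescent substrate CPY-CA where protein kinase A (PKA) is active, and its fused EGFP corrects for the level of the recorder. Knockout cells were transduced with sublibrary A of the lentiviral HD CRISPR library, labeled on day 6 and sorted by normalized labeling (CPY-CA/EGFP). The low population held around 25% of the cells, the medium population (basal in the sample labels) around 50% and the high population around 25%, and a further sample, T0, is of day 0. All of these populations carried the same recorder, Cas9 and sgRNA library. The recorder line had been selected with blasticidin, and transduced cells were selected with puromycin before labeling. No stimulator or inhibitor of PKA is described for the screen. There were 2 independent screens, numbered 2 and 3 in the labels, with 1 library of each population and 1 of T0 in each. The files hold reads of sgRNA cassettes from genomic DNA, so that editing and protein loss at the 44 genes were not measured.

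Replication starts at origins that the origin recognition complex (ORC) marks. With CDC6 and CDT1, ORC loads the MCM2 to MCM7 ring onto DNA, a step called licensing. The kinase CDC7 with an activator such as DBF4, together with TICRR and TOPBP1, then lets CDC45 and the GINS complex join MCM to form the active CMG helicase. Polymerase alpha and primase lay down primers, polymerase epsilon extends the leading strand and polymerase delta the lagging strand, PCNA clamps the polymerases to DNA after loading by the RFC complex, RPA covers single-stranded DNA, and FEN1 and LIG1 join the Okazaki fragments. Most of these proteins are needed by every dividing cell, so that cells with a knockout are lost from a growing pool.

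The 8 libraries held 23369720 to 31777138 reads, 221561667 in all, with a median of 260 to 356 reads per sgRNA. Scaled reads, used throughout, are counts brought to a common library total, and those of a gene are summed over its 4 sgRNAs. The median sgRNA against the 44 genes had 200.3 scaled reads over the 8 libraries, against 308.7 for the sgRNAs of all genes and 328.9 for 278 control sgRNAs that target no human sequence. Of the 176 sgRNAs, 15 averaged under 50 scaled reads, and counting error is largest for these. The 4 sgRNAs of a gene share a target and are not replicates, so that each gene test ran over the 2 screens.

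Knockouts of replication genes were enriched among strongly labeled cells. Comparing high with low, 33 of the 44 genes rose and none fell at an FDR under 0.05 (limma), where 5.25% of all 18638 genes rose and 2.73% fell. The median log2 fold change was 1.08 for the 44 genes, against −0.01 for all genes. The fold changes of all 44 lay above 0, and for 42 of them both screens had the same sign. PCNA, CDC7, POLD3, POLD2 and CDC45 were among the 100 genes with the largest fold changes of the library, and 28 of the 44 were among the largest 500. Across the 44 genes, the fold changes of the 2 screens, which share the library and the cell line, correlated at Pearson's r = 0.850 (Spearman's rho = 0.840). Since only 2 screens were run, limma borrowed most of each gene's error from the other genes (prior df 10.2). Every SE of a gene value given here is limma's and is moderated in this way, so that it is not the spread of the 2 screens alone.

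**Figure D1:**
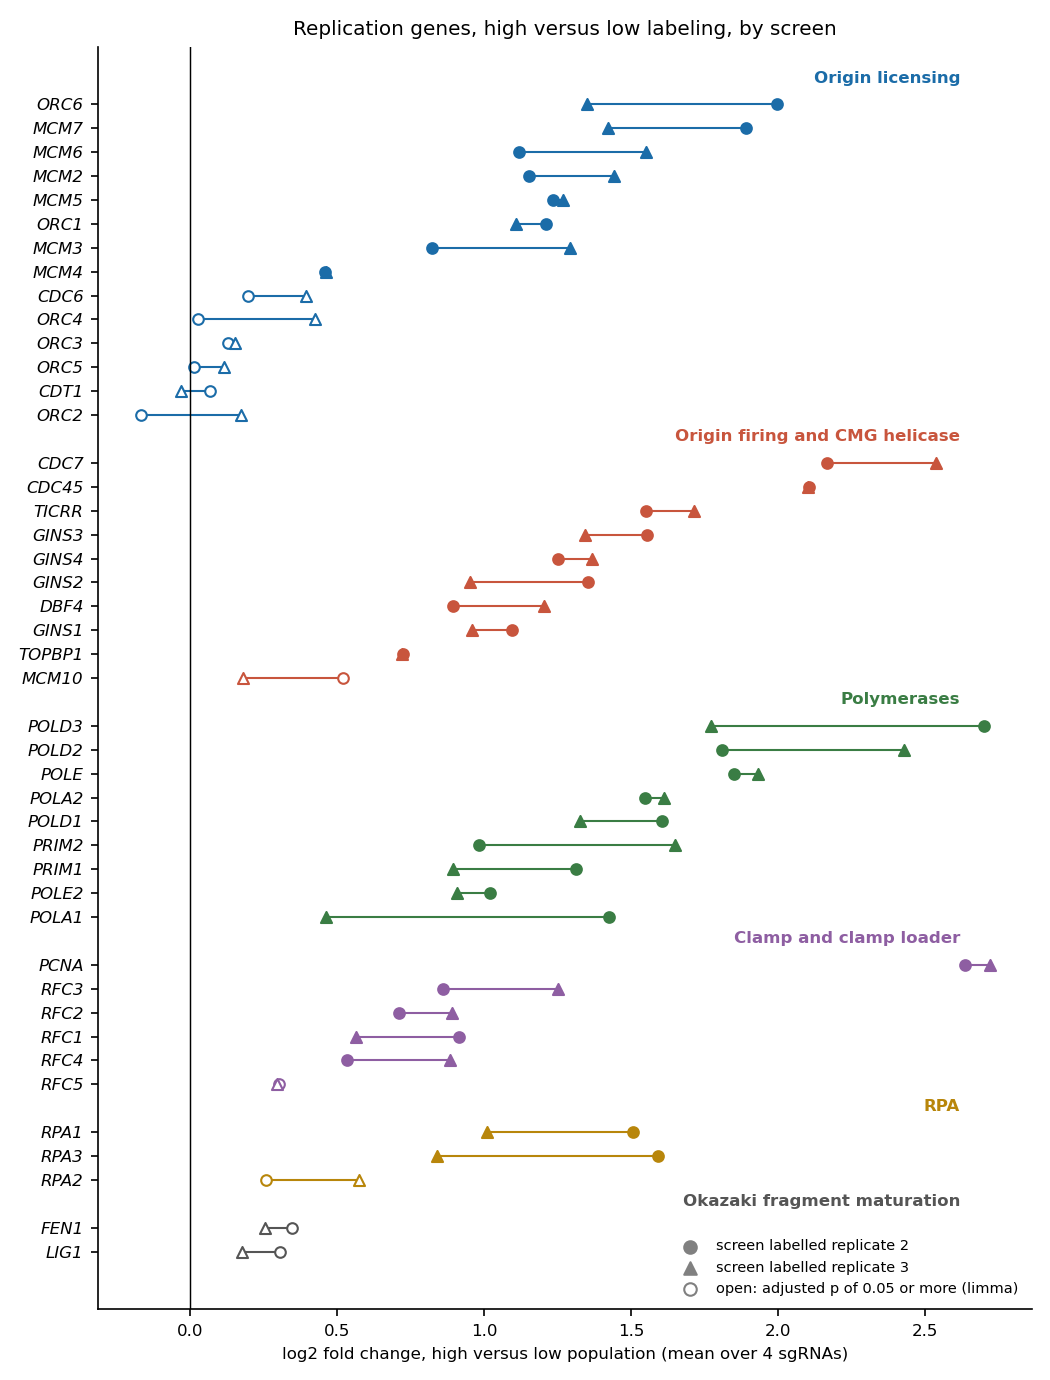
Log2 fold change of each of the 44 genes in the high versus the low population (mean over 4 sgRNAs), with screen 2 as a circle and screen 3 as a triangle, grouped by role. Filled symbols mark the 33 genes that passed the test, and open symbols the 11 that did not.

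The sliding clamp gave the largest shift. *PCNA* (ENSG00000132646, chr20:5114953-5126626 in GENCODE 44, GRCh38) had 1731 scaled reads at T0, 209.3 in the low, 374.4 in the medium and 1234 in the high population of screen 2. In screen 3 it had 1587, 178.6, 178.1 and 930.3 scaled reads in the same order. Both high libraries stood far above both low libraries with no overlap, while low and medium were nearly level in screen 3. High versus low, its sgRNAs were 6.40-fold more abundant (log2 2.68 ± 0.11, moderated SE, n = 2 screens), with limma giving an adjusted p of 8.93e-08. In the library, 28 genes had a larger fold change. If the gates are weighted by their share of the cells, 56.3% and 63.5% of *PCNA* knockout reads lay in the high gate in screens 2 and 3, against 23.8% and 24.0% for sgRNAs without a target. Of the 5 subunits of the clamp loader, *RFC3* (log2 fold change 1.06), *RFC2* (0.80), *RFC1* (0.74) and *RFC4* (0.71) also rose. The call of *RFC1* was lost without the high or low library of screen 2, that of *RFC4* without either one of screen 3, and that of *RFC2* without the low library of screen 3. The fifth, *RFC5*, had 0.30 ± 0.11 (SE, n = 2) and did not pass (adjusted p = 0.150, limma).

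All 9 polymerase subunits rose in the high population. *POLD3*, an accessory subunit of polymerase delta (chr11:74493851-74669117), had 1888 scaled reads at T0, 346.0 in the low, 509.2 in the medium and 1558 in the high population of screen 2, and 1777, 277.3, 344.5 and 1183 in screen 3. Its log2 fold change was 2.24 ± 0.18 (SE, n = 2), with 2.70 in screen 2 and 1.77 in screen 3. *POLD2*, the subunit that links POLD3 to the catalytic subunit (chr7:44114631-44124358), had 1258, 343.9, 557.4 and 1485 scaled reads in screen 2, and 1310, 245.5, 414.9 and 1178 in screen 3, for T0, low, medium and high. For both genes the high libraries held several times the reads of the low ones, with no overlap, and medium lay between them. *POLD2* shifted by 2.12 ± 0.14 (SE, n = 2), and the catalytic subunits of polymerase delta and epsilon, *POLD1* and *POLE*, by 1.47 ± 0.12 and 1.89 ± 0.11. *POLE2*, the second subunit of polymerase epsilon, had 0.96, and lost its call without the low library of screen 3. In the polymerase alpha and primase complex the fold changes were 1.58 for *POLA2*, 1.32 for *PRIM2*, 1.10 for *PRIM1* and 0.94 for the catalytic subunit *POLA1*.

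The value of *POLA1* rests on few reads and differed between the screens. It had 219.6 scaled reads in the high and 60.9 in the low population of screen 2, but 133.9 in the high and 93.2 in the low population of screen 3, so that its fold changes were 1.42 and 0.46. Without the low library of screen 2 its fold change was 0.37 and its call was lost, and without that of screen 3 it was 1.51. The call was also lost without either high library. It was lost too when the screen was not a block, and when it was fitted as a block over all sorted libraries. With sgRNAs averaging at least 50 scaled reads the fold change of *POLA1* was 1.47 (adjusted p = 0.000536, limma). The value for *PRIM1* rests on few reads too, since sgRNAs averaging at least 50 scaled reads gave 0.51 instead of 1.10 and still passed (adjusted p = 0.00211).

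Of the 10 genes of origin firing and the CMG helicase, 9 rose. *CDC7* (chr1:91500851-91525764) had 1967 scaled reads at T0, 477.4 in the low, 786.0 in the medium and 2235 in the high population of screen 2, and 1772, 385.8, 743.5 and 2132 in screen 3. The populations stood in the same order in both screens, and the high library of each held more reads than T0. At 5.11-fold (log2 2.35 ± 0.12, moderated SE, n = 2 screens), its shift was the second largest of the 44, and limma gave an adjusted p of 2.39e-07. *DBF4*, an activating subunit of CDC7, had 1.05 ± 0.12. *CDC45*, the CMG subunit that joins MCM at firing (chr22:19479457-19520612), had 1686, 452.8, 665.8 and 1605 scaled reads in screen 2, and 1592, 370.4, 540.8 and 1293 in screen 3, for T0, low, medium and high. Both high libraries held far more reads than both low libraries, and the fold changes were 2.11 and 2.10 in the 2 screens. The 4 GINS subunits lay close together, at 1.45 for *GINS3*, 1.31 for *GINS4*, 1.15 for *GINS2* and 1.03 for *GINS1*. *TICRR*, which brings TOPBP1 to licensed origins, had 1.63, and *TOPBP1* itself 0.72. *MCM10*, which acts on the assembled helicase, had 0.35 ± 0.12 (SE, n = 2) and did not pass (adjusted p = 0.120, limma).

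Among the 14 licensing genes, 8 rose. All 6 genes of the MCM ring rose, at 1.66 for *MCM7*, 1.33 for *MCM6*, 1.30 for *MCM2*, 1.25 for *MCM5*, 1.06 for *MCM3* and 0.46 for *MCM4*. *MCM4* passed by the smallest margin of the 33 (adjusted p = 0.0194, limma) and did not pass when any 1 of the high or low libraries was left out. *MCM3* did not pass without the low library of screen 3. Of the 6 ORC subunits, *ORC6* (1.67 ± 0.14) and *ORC1* (1.16 ± 0.11, SE, n = 2 screens each) rose. *ORC2*, *ORC3*, *ORC4* and *ORC5* had fold changes of 0.00 to 0.23 with SEs of 0.11 to 0.12. For *ORC2* (chr2:200908977-200963680) the scaled reads were 2537 at T0, 3102 in the low, 2879 in the medium and 2726 in the high population of screen 2, and 2701, 2774, 2957 and 3041 in screen 3. The 3 sorted populations overlapped, high and low stood in opposite order in the 2 screens, and both T0 libraries lay slightly below the sorted ones. The loading factors *CDC6* and *CDT1* had 0.30 ± 0.11 and 0.02 ± 0.11 (SE, n = 2) and did not pass.

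*CDT1* and *ORC2* were picked for display after their values were seen. The scaled reads of *CDT1* were 486.3 at T0, 196.5 in the low, 147.6 in the medium and 162.1 in the high population of screen 2, and 520.8, 122.8, 193.1 and 150.5 in screen 3. High and low were in opposite order in the 2 screens, and all 6 sorted libraries lay below both T0 libraries. Of the genes that act after synthesis or on single-stranded DNA, *RPA1* (1.26 ± 0.13) and *RPA3* (1.22 ± 0.16) rose, and *RPA2* had 0.42 ± 0.12 (SE, n = 2; adjusted p = 0.0555, limma). The calls of *RPA1* and *RPA3* were lost when either the high or the low library of screen 2 was left out, that of *RPA1* also without the low library of screen 3. Both values rest on few reads. No sgRNA of *RPA3* averaged 50 scaled reads over the high and low libraries. For *RPA1*, sgRNA 4 had 0 scaled reads in the low population of screen 2. The Okazaki fragment genes *FEN1* (0.30 ± 0.11), the flap nuclease, and *LIG1* (0.24 ± 0.11), the ligase, did not pass.

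Weighted by gate size as for *PCNA*, the high gate held 53.3% and 55.0% of *POLD3* knockout reads in screens 2 and 3, 52.2% and 53.2% of those of *CDC7*, and 47.3% and 47.1% of those of *CDC45*. For *GINS4* the shares were 44.2% and 44.3%, and for *MCM5* 44.5% and 44.2%. Those of *CDT1* (24.8% and 22.8%) and *ORC2* (23.5% and 25.9%) lay near the 23.8% and 24.0% of sgRNAs without a target.

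**Figure D2:**
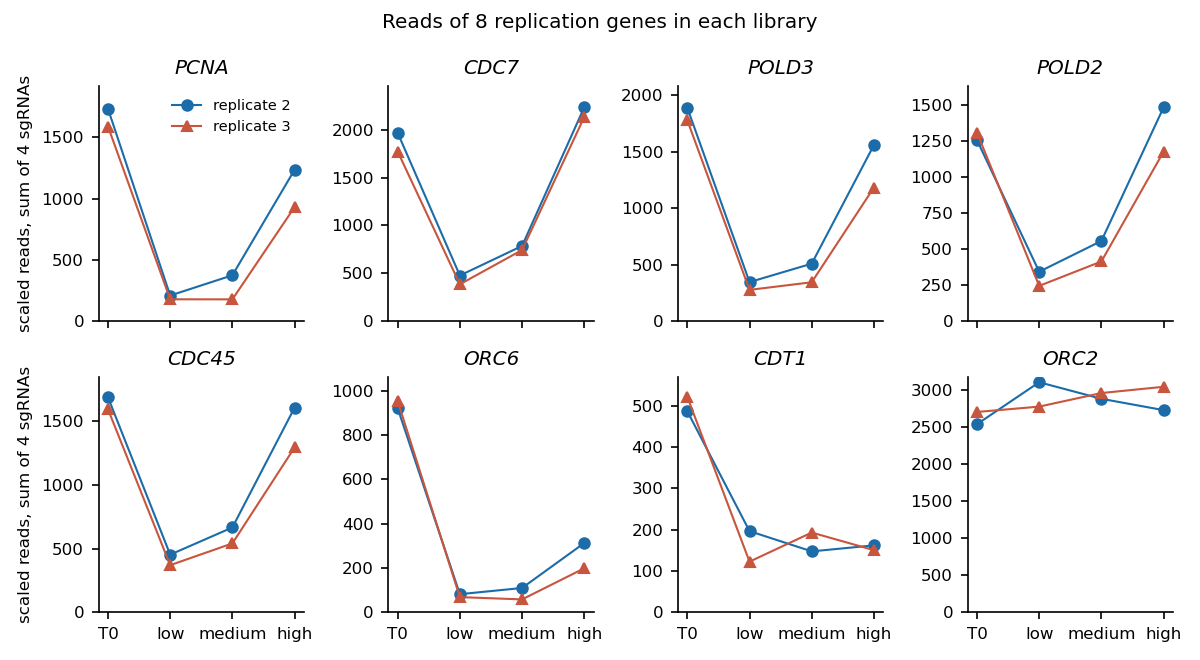
Scaled reads (sum of 4 sgRNAs, linear axes from 0) of 8 genes at T0 and in the low, medium and high populations, with 1 line per screen. *PCNA*, *CDC7*, *POLD3*, *POLD2*, *CDC45* and *ORC6* have most of their sorted reads in the high libraries, whereas those of *CDT1* and *ORC2* are spread over the populations without a common order.

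Single sgRNAs were tested with edgeR on the 6 sorted libraries. Of the 173 sgRNAs against the 44 genes with enough reads, 89 rose in high versus low and none fell, where 2.94% of all gene sgRNAs rose and 1.55% fell. Of 275 sgRNAs without a target, none rose and 3 fell. Irrespective of the test, 143 of the 176 had a fold change above 0 in both screens and 3 had one below 0 in both. For 14 genes all 4 sgRNAs rose, and they included *PCNA*, *CDC7*, *CDC45*, *POLE*, *TICRR*, *DBF4*, *MCM5*, *MCM7* and *RFC3*. Another 6 genes had 3 sgRNAs that rose, 4 had 2, 7 had 1 and 13 had none. Among these 14 the sgRNAs of *DBF4* spread least, with log2 fold changes between 0.97 and 1.14, and those of *GINS4* lay between 1.17 and 1.57.

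The 4 sgRNAs of *PCNA* had fold changes of 2.73, 3.50, 2.03 and 2.33. The largest, sgRNA 2, had 289.4 scaled reads in the high and 40.6 in the low population of screen 2, and 150.5 in the high and 5.48 in the low population of screen 3, so that its size rests on few low reads in screen 3. For *CDC7* the 4 values were 1.56, 2.46, 3.09 and 2.30. Both genes thus rose by every sgRNA, and in each screen.

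Within some genes the sgRNAs did not move together. At *POLD1*, sgRNAs 1, 2 and 3 had fold changes of 2.53, 2.22 and 1.25 and were lost since T0 (log2 −2.71, −2.95 and −1.17), whereas sgRNA 4 had −0.02 and 0.19 since T0. The fourth therefore neither shifted nor was lost. At *POLE*, sgRNAs 2 and 4 had 2.94 and 2.54, sgRNA 1 had 1.29, and sgRNA 3 had 0.83 with 0.13 since T0. At *MCM3*, sgRNAs 1 and 2 had 1.59 and 1.79 and sgRNA 4 had 0.72, against 0.13 for sgRNA 3, whose value since T0 was 0.14. *PRIM1* rose by sgRNA 1 alone (3.02, against 0.24, 0.54 and 0.81 for the others), and that sgRNA had 7.48 and 7.67 scaled reads in the low populations. These 4 genes were picked after their values were seen. Values of single sgRNAs since T0 weight the gates on the log scale, so that a shift between the gates lowers them too.

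*RFC5*, which did not pass as a gene, had 2 sgRNAs that rose (0.96 and 0.48) and 2 that did not (−0.31 and 0.07). Conversely, *ORC1*, *POLA1*, *RFC1* and *RPA3* rose as genes with no single sgRNA past the test. All 4 sgRNAs of *CDT1* were lost since T0 (log2 −1.04 to −3.47), and none of the 3 that could be tested rose in high versus low.

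**Figure D3:**
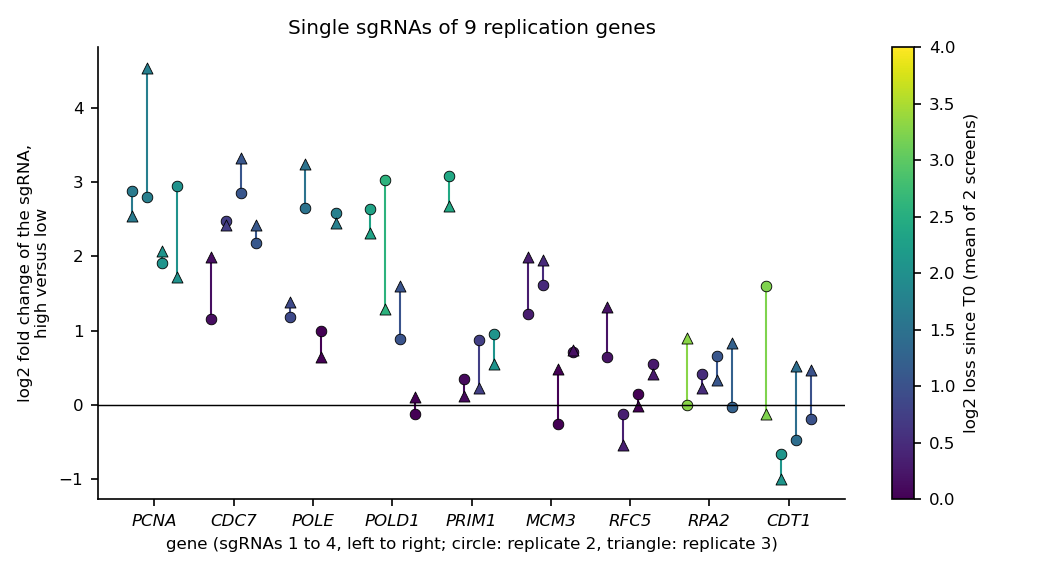
Log2 fold change of single sgRNAs in the high versus the low population for 9 genes, with screen 2 as a circle and screen 3 as a triangle, coloured by the log2 loss since T0 (values with no loss are at the dark end). The lighter sgRNAs of *POLD1* and *PRIM1* sit higher than the darkest one of the same gene, and those of *CDT1* lie on either side of 0.

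The low and the high population were each set against medium, and more of the 44 genes passed on the high side, but for none of them did the difference between the sides pass its own test. In high versus medium 24 genes rose and none fell, where 1.7% of all genes rose and 0.0966% fell, and the median log2 fold change was 0.87. In low versus medium none rose and 6 fell, where 1.18% of all genes rose and 1.54% fell, and the median was −0.20. The 6 were *CDC7* (−0.87), *POLD2* (−0.87), *MCM7* (−0.70), *CDC45* (−0.67), *POLE* (−0.66) and *RFC3* (−0.56), with adjusted p of 0.00458 to 0.0256 (limma, n = 2 screens). All but *RFC3* also rose in high versus medium. The 2 comparisons share the medium libraries. Without the low library of screen 2 or of screen 3 the count of 6 was 0, and that over all genes was 42 and 11, against 287. The median of the 44 was then −0.17 and −0.16, and *CDC45* kept −0.54 to −0.69 over all settings.

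*MCM7* (chr7:100092233-100101940) had 1794 scaled reads at T0, 261.6 in the low, 409.0 in the medium and 923.9 in the high population of screen 2, and 1393, 190.7, 301.9 and 523.8 in screen 3. Its low and high populations lay on either side of medium in each screen. The GINS genes gave another picture. *GINS1* to *GINS4* had 1.23 to 1.26 in high versus medium, and all 4 rose, but −0.19 to 0.22 in low versus medium, with none past the test. *GINS4* had 2654 scaled reads at T0, 1938 in the low, 2040 in the medium and 4776 in the high population of screen 2, and 2689, 1801, 1871 and 4417 in screen 3. Low and medium were nearly level in each screen, and the high libraries stood far above them. *MCM2* and *MCM5* had 1.33 and 1.22 in high versus medium. In low versus medium their screens went opposite ways, at 0.28 in screen 2 and −0.21 in screen 3 for *MCM2* and at 0.12 and −0.19 for *MCM5*.

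*ORC6*, the smallest ORC subunit (chr16:46689643-46698394), had the largest high versus medium fold change of all 18638 genes, 2.51 ± 0.23 (moderated SE, n = 2 screens), with an adjusted p of 0.0100 (limma). Its scaled reads were 921.2 at T0, 82.2 in the low, 110.2 in the medium and 312.9 in the high population of screen 2, and 953.7, 69.0, 58.7 and 199.1 in screen 3. High exceeded medium and low in both screens, but on few reads: sgRNA 1 had 0.911 and 0 scaled reads in the medium libraries. With sgRNAs of at least 50 reads the fold change was 1.09 (adjusted p = 0.00260). Its high versus low call was lost without the low library of screen 2 (log2 fold change 1.10). That call was also lost without the high library of screen 3, and when the screen was not a block. *PCNA* (2.14) and *POLD3* (1.80) followed it among the 44 in high versus medium.

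The sum of the low and high fold changes over medium is 0 where the sides are equal and opposite. Its median was 0.60 for the 44 genes, against −0.00 for all genes, and it was above 0 for 37 of them. None of the 44 passed the test, where 0.0376% of all genes passed above 0 and 0% below. The smallest adjusted p was 0.0975, for *GINS1* (limma). At an unadjusted p under 0.05 were 23 of the 44, and 1279 of all 18638 genes. The count past the adjusted test varied with the treatment of low reads. With the median over sgRNAs in place of the mean it was 14, *ORC6*, *PCNA*, *POLD3*, 5 MCM and 4 GINS genes among them. Of all genes 209 then passed above 0 and 32 below, against 7 and 0.

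**Figure D4:**
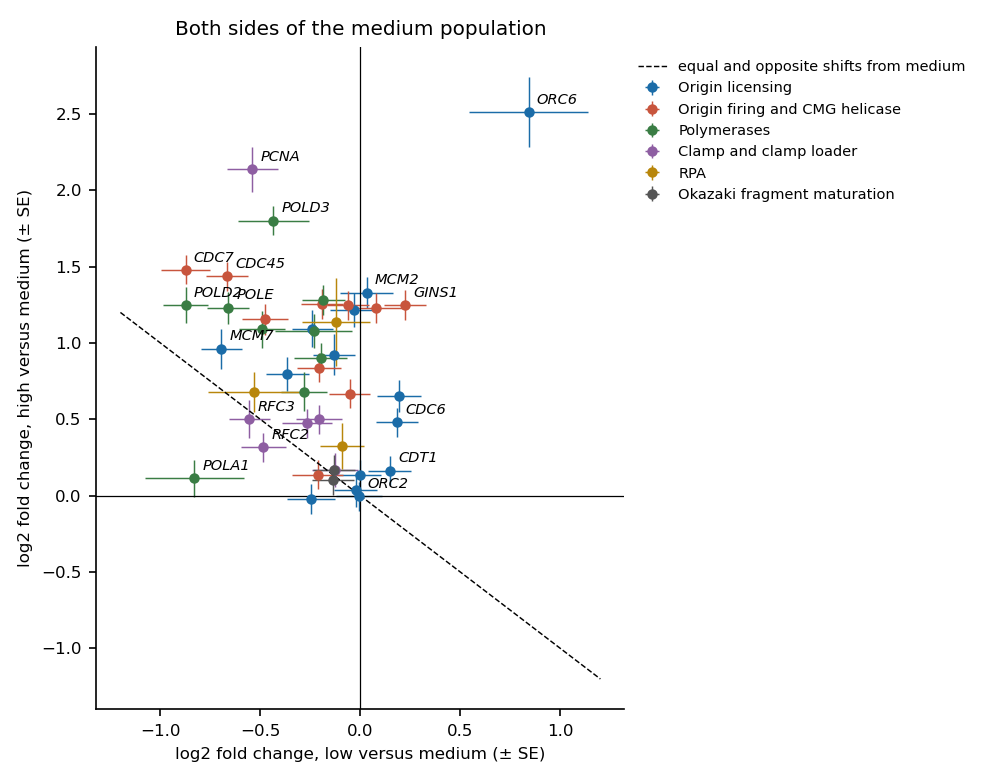
Log2 fold change of low versus medium (horizontal) and of high versus medium (vertical) for each of the 44 genes, with limma's moderated SEs (n = 2 screens). Most genes lie above the dashed line of equal and opposite shifts, and *ORC6* lies farthest from it.

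Loss from the growing pool was measured by rebuilding the unsorted pool from the 3 sorted populations, weighted 0.25, 0.5 and 0.25 for low, medium and high. Against T0, 25 of the 44 genes fell and 1 rose, where 8.35% of all genes fell and 2.54% rose, and the median log2 fold change was −0.53, against 0.04 for all genes. All 9 polymerase genes fell, as did all 3 RPA genes, 6 of the 10 firing and helicase genes, 5 of the 14 licensing genes and 2 of the 6 clamp genes. With medium alone against T0, 31 of the 44 fell, with a median of −0.90, where 1295 of all genes fell, against 1556 before. Medium alone also falls where a knockout moved from the medium to the high gate, so that this count is not of loss alone. The calls of *GINS1*, *GINS2* and *TOPBP1* were lost without the T0 library of screen 3, and that of *TOPBP1* also without that of screen 2. In the latter fit *GINS1* had −0.80, against −0.45 in the main fit. Fits without 1 library took a weighted mean of log2 values, which with all libraries gave the 44 genes a median of −0.64. The 2 values of *GINS1* thus differ in measure as well as in libraries. Neither *FEN1* nor *LIG1* passed. The only gene that rose, *ORC4* (0.32 ± 0.09, SE, n = 2; adjusted p = 0.0264, limma), kept its call in 4 of 18 settings, and centred on sgRNAs without a target it had 0.08. That centring moves the median of all genes to −0.20 and the calls to 24 genes that rose and 6232 that fell, against 473 and 1556 before it, and 40 of the 44 then fell.

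The largest losses were those of *RPA3*, *POLA1* and *ORC6*. *RPA3*, the small RPA subunit (chr7:7636518-7718607), had 1136 scaled reads at T0, 65.1 in the low, 99.3 in the medium and 132.5 in the high population of screen 2, and 870.8, 40.5, 65.1 and 79.4 in screen 3. Its rebuilt pool, summed over sgRNAs, was 8.72% and 7.18% of T0 in the 2 screens. The mean log2 fold change of its sgRNAs was −3.56 ± 0.11 (moderated SE, n = 2 screens), and limma gave an adjusted p of 9.23e-19. *POLA1* (chrX:24693873-24996986) had 1167, 60.9, 127.5 and 219.6 scaled reads in screen 2, and 1001, 93.2, 98.1 and 133.9 in screen 3, for T0, low, medium and high, with a pool of 11.5% and 10.6% of T0. *ORC6* had a pool of 16.7% and 10.1%. All 6 sorted libraries of these genes lay far below both T0 libraries.

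At the other end, *ORC5*, *DBF4* and *GINS4* had the fold changes nearest below 0, at −0.00, −0.03 and −0.04, with SEs of 0.09 to 0.10. *ORC5*, an ATPase subunit of ORC, had 2669 scaled reads at T0, 2386 in the low, 2634 in the medium and 2474 in the high population of screen 2, and 2558, 2536, 2442 and 2778 in screen 3, and high overlapped with low and with medium. *DBF4* had 1188, 910.9, 993.7 and 1722 scaled reads in screen 2, and 1228, 871.3, 1034 and 1903 in screen 3, for T0, low, medium and high. Its high libraries held more reads than T0 and its low libraries fewer.

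The labeling shift and the loss since T0 both use the high and low libraries, so their values are given side by side only. *PCNA* had both (2.68 in high versus low and −1.86 since T0), as had *POLD3* (2.24 and −1.56), *MCM7* (1.66 and −1.96) and *POLA2* (1.58 and −2.87). *CDT1* (0.02 and −1.93), *RPA2* (0.42 and −1.52) and *CDC6* (0.30 and −1.12) were lost with no call in labeling in the main fit. With a pseudocount of 5 reads, the median over sgRNAs or that centring on sgRNAs without a target, *RPA2* rose in high versus low. *GINS4* (1.31 and −0.04), *MCM6* (1.33 and −0.15), *MCM5* (1.25 and −0.17), *MCM2* (1.30 and −0.24) and *DBF4* (1.05 and −0.03) shifted with no call of loss at these settings. With medium alone against T0, *GINS4*, *MCM6*, *MCM5* and *MCM2* were called lower, and centred on sgRNAs without a target all 5 were. *ORC2*, *ORC3*, *ORC5*, *RFC5*, *MCM10*, *FEN1* and *LIG1* had neither call in the main fit. Centred on sgRNAs without a target, *RFC5*, *MCM10*, *FEN1* and *LIG1* were called lower since T0. In high versus low that centring gave calls to *RFC5* and *FEN1*. By single sgRNAs, 91 of the 176 fell since T0 and none rose (edgeR), where 6.28% of all gene sgRNAs fell and 1% rose. The edgeR values weight the gates on the log scale, so that an uneven spread over the gates lowers them without loss. The count of 91 is therefore not of loss alone.

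**Figure D5:**
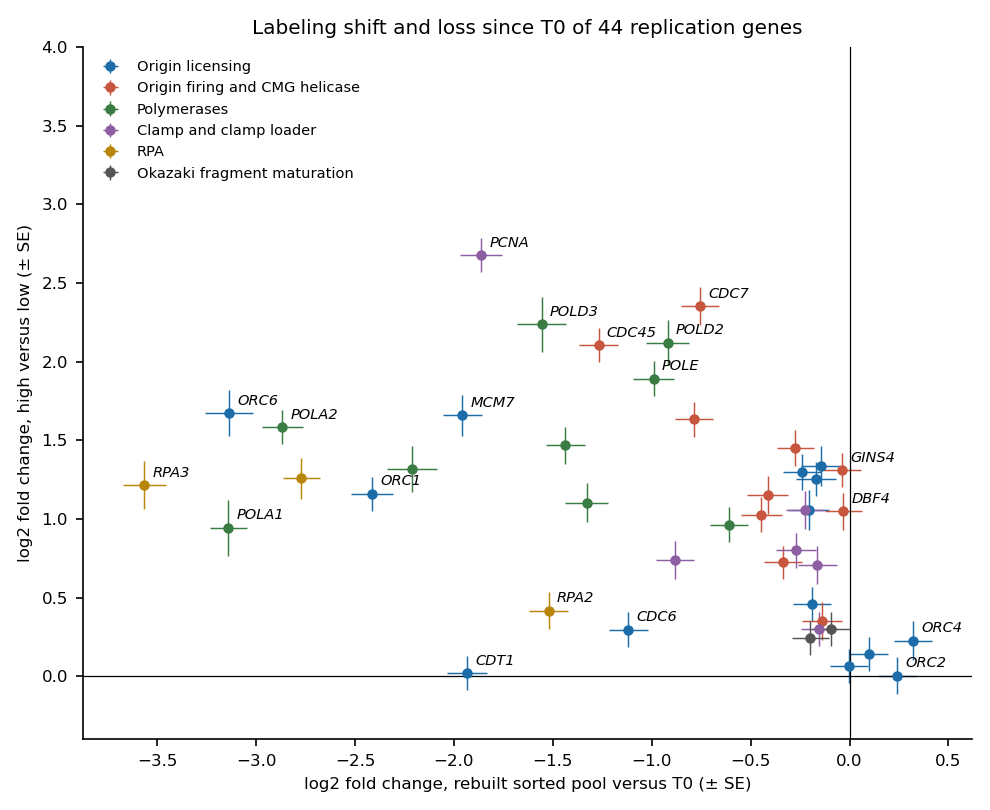
Log2 fold change of high versus low (vertical) against that of the rebuilt sorted pool versus T0 (horizontal) for the 44 genes, with limma's moderated SEs (n = 2 screens). *CDT1*, *RPA2* and *CDC6* lie low at a clear loss, and *GINS4* and *DBF4* lie high near no loss.

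Related genes outside the 44 were counted in the same way. Of 32 other replication and fork genes, 8 rose in high versus low and none fell, with a median of 0.15, where 5.25% of all genes rose and 2.73% fell. The largest were *DONSON* (1.56) and *MTBP* (1.41), which act in CMG assembly and firing, *MMS22L* (1.51) and *TONSL* (1.33), partners at broken or stalled forks, and *TIMELESS* (1.31) of the fork protection complex. The small polymerase subunits *POLD4* (0.05), *POLE3* (0.16) and *POLE4* (0.03), named after their values were seen, did not pass. Of 10 genes of the replication checkpoint, among them *ATR*, *ATRIP*, *CHEK1* and *WEE1*, none passed in either direction (limma; median 0.02), although 4 had fallen since T0, where 8.35% of all genes fell. *CHEK1*, the effector kinase of that checkpoint, had 78.4 scaled reads in the high and 57.7 in the low population of screen 2, and 71.1 in the high and 55.9 in the low population of screen 3. Its high versus low value was 0.25 ± 0.14 (log2, moderated SE, n = 2 screens), and its value since T0 was −3.66.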

How the data were processed

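KinprolaPKA-expressing RKO cells of 2 screens were analysed as 8 libraries. The authors counted reads per sgRNA with MAGeCK and deposited raw counts from 4 sequencing lanes per library. The sources used here name neither an aligner nor a genome build. The 4 lanes were summed, since they differed little beyond counting error (chi-square over its degrees of freedom was 1.02 to 1.03, and 5.76 to 7.34 between screens). The table has 4 columns that match no sample, and these were not used.

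Each library was scaled to the mean of the library totals, and log2 was taken of scaled reads plus 1, so that fold changes of low sgRNAs are understated. Each gene's value is the mean of its sgRNAs' differences within a screen. limma 3.58.1 (R 4.3.3) tested their mean over 2 screens against 0, with Benjamini-Hochberg adjustment over 18659 entries (18638 genes and 21 control entries) and an FDR under 0.05. Single sgRNAs with at least 10 reads in at least 2 libraries were tested with edgeR 4.0.16 (quasi-likelihood, TMM, the screen as a block), and sorted cells were set against T0 there by the same weights on the log scale. Scaling and pseudocount are not named in the methods, and core-essential genes, which the study left out of its hit list, were kept. Taking differences within a screen treats the screen as a block, since the screens were independent, and libraries of the same number deviated together (correlations between 0.123 and 0.161 over the 3 pairs of sorted populations). The tests were tried on simulated counts.

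The 44 genes and the other gene lists were chosen with earlier results of these data known. Values in every library are given for the 5 genes with the largest high versus low shift, the 3 largest called values against medium, and the 3 largest and 3 smallest losses since T0. Gene names and positions are from GENCODE 44, and Python 3.11.15 was used to prepare counts and figures. Alternatives were other pseudocounts, scalings, centring, read minimums, the median over sgRNAs, the block, DESeq2 1.42.0 for sgRNAs, and leaving out each library. Counts are of amplified reads, so that 1 molecule can be counted more than once. No sgRNA sequences are given. The values of 1 gene outside the 44 are not reported here.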

Additional observations from a re-analysis of the deposited data

How the results depend on the processing

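The 33 genes that rose in high versus low numbered 29 to 36 over the other settings that kept all libraries. Of all genes 728 to 1273 rose in these settings, against 979. Without 1 high or low library the median log2 fold change of the 44 was 1.06 to 1.11, against 1.08. Leaving out a medium library cannot change this comparison and gave the main values back. The screen as a block is built into the fold changes, and without that pairing (no replicate block) 29 rose, without *ORC6*, *POLA1*, *PRIM2* and *RPA3*. In low versus medium, the 6 genes that fell became 10 with a pseudocount of 5 reads, 11 with the median over sgRNAs and 1 with no replicate block, and leaving out 1 library gave 0 to 8 that fell and 0 to 1 that rose. High versus medium gave 24, 30 with the median over sgRNAs, 32 centred on sgRNAs without a target and 21 to 27 without 1 library. Over all genes, low versus medium gave 416 that fell with a pseudocount of 5 reads and 487 with the median over sgRNAs, against 287. High versus medium gave 602 that rose with the median over sgRNAs and 868 centred on sgRNAs without a target, against 316. The asymmetry about medium, with 0 genes called, gave 10 with a pseudocount of 5 reads and 14 with the median over sgRNAs. It gave 10 centred on sgRNAs without a target and 9 with sgRNAs of at least 50 reads. These last 2 settings were chosen for it after seeing the data, as were another scaling, no replicate block and leaving out 1 library. Of all genes 74 passed above 0 with a pseudocount of 5 reads and 209 with the median over sgRNAs, against 7. Centred on sgRNAs without a target 113 passed, and with sgRNAs of at least 50 reads 76. Against T0, the 25 genes that fell were 40 when centred on sgRNAs without a target, 31 with medium alone against T0 (median −0.90, against −0.53) and 22 to 27 without 1 library. The 1 gene that rose, *ORC4*, became 0 with the median over sgRNAs, centring, sgRNAs of at least 50 reads, a replicate block over all libraries, no replicate block, the weighted mean of log2 values and medium alone against T0, and 0 to 1 without 1 library. Of the 89 sgRNAs that rose in high versus low, 62 to 90 rose without 1 library, 75 by DESeq2 and 81 with no replicate block, and the 91 that fell since T0 were 66 to 88 without 1 library. Of all gene sgRNAs 1557 rose by DESeq2 and 1771 with no replicate block, against 2189. Centring on sgRNAs without a target moved the median of all genes from −0.01 to 0.10 in high versus low. There 1273 genes rose and 281 fell, against 979 and 508. In high versus medium it moved that median from −0.01 to 0.08. Medium alone against T0 also falls where knockouts moved to the high gate. Of all genes 1295 fell with medium alone and 6232 when centred on sgRNAs without a target, against 1556. The fits against T0 without 1 library took a weighted mean of log2 values. With all libraries that measure gave 27 genes that fell and a median of −0.64, where 1508 of all genes fell. No value called with the settings of the report changed direction in another setting. The cause of these changes was not tested.

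A minimum of 50 scaled reads, averaged over the libraries compared, removes sgRNAs that were strongly lost, so that a smaller loss under it is fixed by its construction. It moved high versus low values either way, to 0.73 for *ORC1*, against 1.16 with all its sgRNAs, and to 1.47 for *POLA1*, against 0.94.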

Other observations

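Knockouts of genes that supply the building blocks of DNA were measured in the same libraries. Of 11 genes of deoxynucleotide synthesis found in the table, 6 rose in high versus low and none fell (limma), where 5.25% of all genes rose. *DUT*, which removes dUTP, had a log2 fold change of 1.59, and *DTYMK*, the thymidylate kinase, 1.00. The subunits of ribonucleotide reductase, *RRM1* and *RRM2*, had 0.85 and 1.01 at losses of −3.96 and −3.20 since T0. Both rest on few reads. In screens 2 and 3 *RRM1* had 102.9 and 91.3 scaled reads in high, and 49.1 and 34.0 in low. *RRM2* had 107.2 and 40.3 in high, and 31.0 and 18.6 in low. In high versus medium the 2 genes had 0.05 and −0.04 and did not pass. *TYMS*, the thymidylate synthase, named after its values were seen, had 0.17 ± 0.11 (moderated SE, n = 2 screens) with 0.00 since T0 and did not pass. The list was chosen with earlier results of these data known.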
